A study of Mus musculus with 6 samples.

Results

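The genes described here are 36 genes of glycolysis and its immediate control, out of 56884 genes counted in ectopic endometriosis lesions of mice. They were chosen by name, from the glucose transporters that bring glucose into the cell to the lactate transporters that carry lactate out, with results of the same lesions already known. All differences between the genotypes below are therefore a description of these genes and no test of them. They were divided into 3 muscle isoforms, 9 hypoxia-induced genes, 13 ubiquitous genes and 11 other tissue-restricted or regulatory genes. Each gene was placed in a single class, so genes called ubiquitous may include some that low oxygen raises.

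Bulk RNA-seq was performed on 3 control (WT) and 3 Dnmt3a knockout (KO) ectopic lesions, each lesion as 1 library, to ask what Dnmt3a, a DNA methyltransferase, does in endometriosis. WT lesions grew from uterine tissue of Dnmt3a f/f female donors and KO lesions from Dnmt3a f/f:PR-Cre/+ female donors, 8 weeks old in both groups according to the methods. In the KO donor, Cre recombinase acts in cells that express the progesterone receptor, and host cells that enter a KO lesion keep an intact gene. The recipients of both groups were wild-type mice carrying estrogen pellets, and the methods name the C57BL/6J strain. The labels describe an intraperitoneal injection of tissue fragments and a time of 4 weeks, while the methods describe a fragment sutured to the mesentery and collection on day 21, and which of these applied to the sequenced lesions was not resolved here. The methods give 3 donors for the 3 lesions of each group, so p-values measure the spread between separate lesions.

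Glycolysis splits glucose into pyruvate in the cytosol, and many of its steps are carried out by enzymes that exist as several isoforms encoded by different genes. Skeletal muscle uses its own isoforms of phosphofructokinase, phosphoglycerate mutase and enolase, whereas low oxygen raises another set of isoforms through the transcription factor HIF-1, and neutrophils and macrophages depend heavily on glycolysis for energy. A dissected lesion can hold cells of the host beside those of the graft, and its RNA is then a mixture of both.

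Library totals ranged from 45370342 to 57239184 counts. Levels are given as CPM, counts scaled to a common library size with a correction for library composition. Dnmt3a itself measured 43.9 to 52.7 CPM over the WT lesions and 30.3 to 36.2 over the KO lesions, and the gene-level count does not show the floxed exons separately. Transcripts of endometrial epithelium summed over 7 markers to 11399 to 20616 CPM in WT and 17098 to 36360 CPM in KO lesions. Most of each sum was Ltf, at 9882 to 19058 CPM in WT and 15673 to 33570 CPM in KO lesions. Epcam, Krt8, Krt18, Krt19 and Cdh1 overlapped between the groups, as Ltf did. Foxa2, a glandular factor, was at or below 2.62 CPM in every lesion and at 0 in KO replicate 3. Transcripts of endometrial stroma, over 6 markers, summed to 2916 to 3448 CPM in WT and 1557 to 4219 CPM in KO lesions. Col1a1 was the largest part of each sum, at 2247 to 2784 CPM in WT and 720 to 3446 CPM in KO lesions. Esr1 and Hoxa11 were higher in every KO lesion than in every WT lesion, as were 10.7% of all genes tested. Col1a1, Pdgfra, Pgr and Hoxa10 overlapped between the groups. Lesions also differed in transcripts of other cells. The 15 skeletal muscle markers summed to 39206 and 42020 CPM in WT replicates 1 and 3, with none at 0, but to 9.61 CPM in WT replicate 2 and 12.2 to 18 CPM in KO lesions, where 3 to 6 of the 15 were at 0. The 10 neutrophil markers, led by S100a8, S100a9 and Csf3r and none at 0 in any lesion, summed to 10945 CPM in WT replicate 2 against 554.4 and 250.7 CPM in WT replicates 1 and 3 and 108.5 to 246.1 CPM in KO lesions. The 8 macrophage markers summed to 1558 to 4125 CPM in WT and 645.1 to 1562 CPM in KO lesions, and the 8 smooth muscle markers to 1095 to 5288 CPM in WT and 2276 to 3906 CPM in KO lesions. The 6 adipocyte markers were highest in KO replicate 3 at 3671 CPM and in WT replicate 2 at 2510 CPM, against 454.9 to 1002 CPM elsewhere. The 6 erythroid markers ranged from 54.4 to 726.6 CPM, highest in KO replicate 3. The 6 pancreatic acinar markers summed to 4197 CPM in WT replicate 3 and to at most 16.2 CPM in the other lesions, and the 5 markers of neurons and Schwann cells to 4.09 to 20.2 CPM. In such bulk samples, fewer cells of a type and less RNA per cell cannot be told apart.

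All 36 genes passed the filter on low counts, and 31 had a negative log2 fold change (KO against WT, so negative means lower in KO; SE below is its standard error) while 5 had a positive one. Their median log2 fold change was -0.91, beside 0.01 over all 18177 genes tested, and -0.59 without WT replicates 1 and 3. At the threshold the study used, a log2 fold change beyond 1 in size together with an unadjusted p under 0.05, 12 of the 36 were lower in KO lesions, where 5.85% of all genes tested were, and 0 were higher, where 3.1% of all genes were. These 12 were Pgam2, Eno3, Pfkm, Hk2, Pfkfb4, Slc16a3, Aldoa, Gapdh, Pkm, Slc2a4, Pdk2 and Pdk4. After Benjamini-Hochberg adjustment over all genes, edgeR's quasi-likelihood test put 0 of the 36 under an adjusted p of 0.05 (0.0055% of all genes were), at adjusted p-values from 0.171 to 0.919, while 20 had an unadjusted p-value under 0.05 (14.7% of all genes). DESeq2's Wald test gave 14 of them an adjusted p-value under 0.05, as it did 5.47% of the genes to which it assigned one, and gave Slc2a3 none. With each of the 6 lesions left out in turn, 8 of the 12 remained past the threshold every time, and Slc2a4, Pdk2, Pdk4 and Pfkfb4 did not: the first 2 dropped out without WT replicate 1, the first 3 without WT replicate 3, KO replicate 1 or KO replicate 2, and Pfkfb4 without WT replicate 2.

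The lowest WT lesion exceeded the highest KO lesion in 15 of the 36 genes, as in 8.74% of all genes, and in 0 the reverse held, as in 10.7% of all genes. Taken one lesion at a time, WT replicate 1 lay above every KO lesion in 23 genes (26.8% of all genes), WT replicate 2 in 21 (30% of all genes) and WT replicate 3 in 23 (25.1% of all genes). The genes behind these counts were not the same in the 3 lesions. The highest value was in WT replicate 1 or 3 for the muscle isoforms and for Aldoa, Gapdh and Pdk4, whereas WT replicate 2 was highest for 12 genes that included Slc2a3, Pfkfb3, Slc16a3 and Hk3. The heat map of all 36 genes shows this division.

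**Figure D1:**
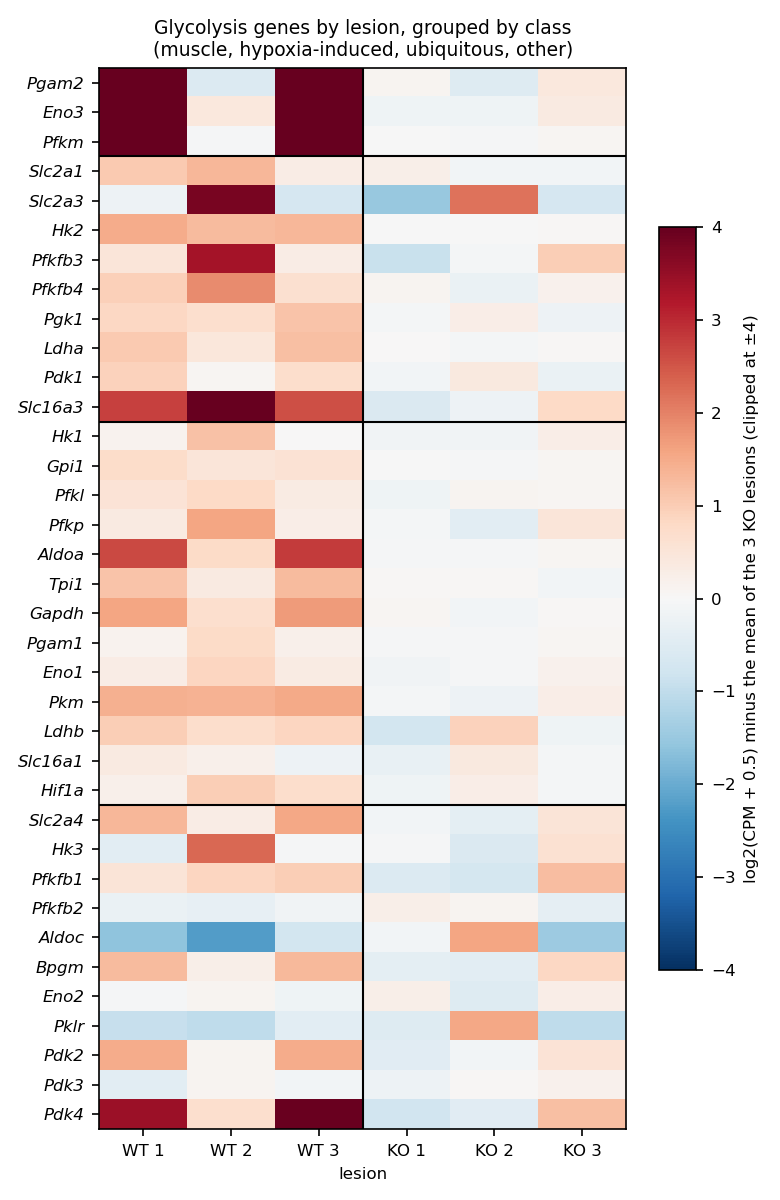
Each row is 1 of the 36 genes and each column 1 lesion, and the colour gives log2(CPM + 0.5) minus the mean of the 3 KO lesions, clipped at ±4; lines separate the 4 classes and the genotypes. The 3 muscle isoforms are dark in WT replicates 1 and 3 only, Slc2a3, Pfkfb3, Slc16a3 and Hk3 are darkest in WT replicate 2, and Hk2 and Pkm have a similar colour in all 3 WT lesions.

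The muscle isoforms gave the largest differences, and these came from 2 of the 3 WT lesions. Pgam2 (ENSMUSG00000020475.4), the muscle phosphoglycerate mutase, which moves the phosphate of 3-phosphoglycerate, measured 323.4, 0.54 and 337.7 CPM across WT replicates 1, 2 and 3 and 1.12, 0.556 and 1.54 across KO replicates 1, 2 and 3 (the order used throughout). WT replicate 2 was therefore at the level of the lowest KO lesion, and the groups overlapped. Eno3 (ENSMUSG00000060600.16), the muscle enolase, measured 1123, 3.62 and 1326 CPM across WT and 2.25, 2.22 and 3.42 across KO lesions. Pfkm (ENSMUSG00000033065.15), the muscle subunit of phosphofructokinase, the enzyme that commits glucose to glycolysis, measured 638, 18.5 and 542.6 CPM across WT and 18.9, 18.8 and 20.3 across KO lesions. WT replicate 2 thus sat just above the highest KO lesion for Eno3 and just below the lowest one for Pfkm.

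With all lesions the log2 fold changes were -7.68 for Pgam2 (SE 2.11), -8.28 for Eno3 (SE 2.03) and -4.37 for Pfkm (SE 1.19). Without WT replicates 1 and 3, a setting chosen after seeing the data, in which the lone WT lesion is assumed to vary like the KO lesions, they were 0.97, -0.48 and 0.04, and none of the 3 passed the threshold. The lesions with high muscle isoforms were the 2 with abundant skeletal muscle transcripts, in which Acta1, Atp2a1 and Myh4, contractile and calcium pump genes of skeletal muscle, measured 11490, 4724 and 2653 CPM in WT replicate 1 and 10578, 5634 and 5195 CPM in WT replicate 3. In WT replicate 2 the same 3 genes measured 1.08, 0.225 and 0.0225 CPM. The part of skeletal muscle in the higher isoform levels was not tested.

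The isoform that dominated each enzyme family differed between lesions. Levels of different genes were compared as CPM per kilobase of exon. Pgam2 made up 90.7% and 90.8% of phosphoglycerate mutase transcripts (Pgam1 and Pgam2) in WT replicates 1 and 3, but 1.05% in WT replicate 2 and 3.7%, 1.86% and 4.66% in KO replicates 1, 2 and 3. Eno3 made up 89.9%, 1.93% and 91.2% of the enolases (Eno1, Eno2 and Eno3) in WT replicates 1, 2 and 3 and 2.34%, 2.21% and 2.86% in KO lesions. Pfkm made up 89.3%, 14.7% and 89.1% of the phosphofructokinases (Pfkl, Pfkm and Pfkp) in WT and 28.3%, 25.9% and 25.1% in KO lesions. The mean KO shares of 3.41%, 2.47% and 26.5% were 1.48%, 0.872% and 12.5% when coding length was used in place of exon length. In the 4 lesions with little muscle RNA, Pgam1, Eno1 and Pfkl, the forms found in most cells, were the most abundant of each family.

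The summed level of each family followed the muscle isoform. Phosphofructokinase transcripts summed to 213.8 and 182.3 CPM per kilobase in WT replicates 1 and 3, 37.7 in WT replicate 2 and 20 to 24.2 in KO lesions. Enolase transcripts summed to 718.3 and 836 CPM per kilobase in WT replicates 1 and 3, 107.9 in WT replicate 2 and 55.3 to 68.8 in KO lesions. For both families, and for the phosphoglycerate mutases at 61.3 against 35.5 to 39.4 CPM per kilobase, WT replicate 2 was also above every KO lesion, through Pfkl, Pfkp, Eno1 and Pgam1.

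**Figure D2:**
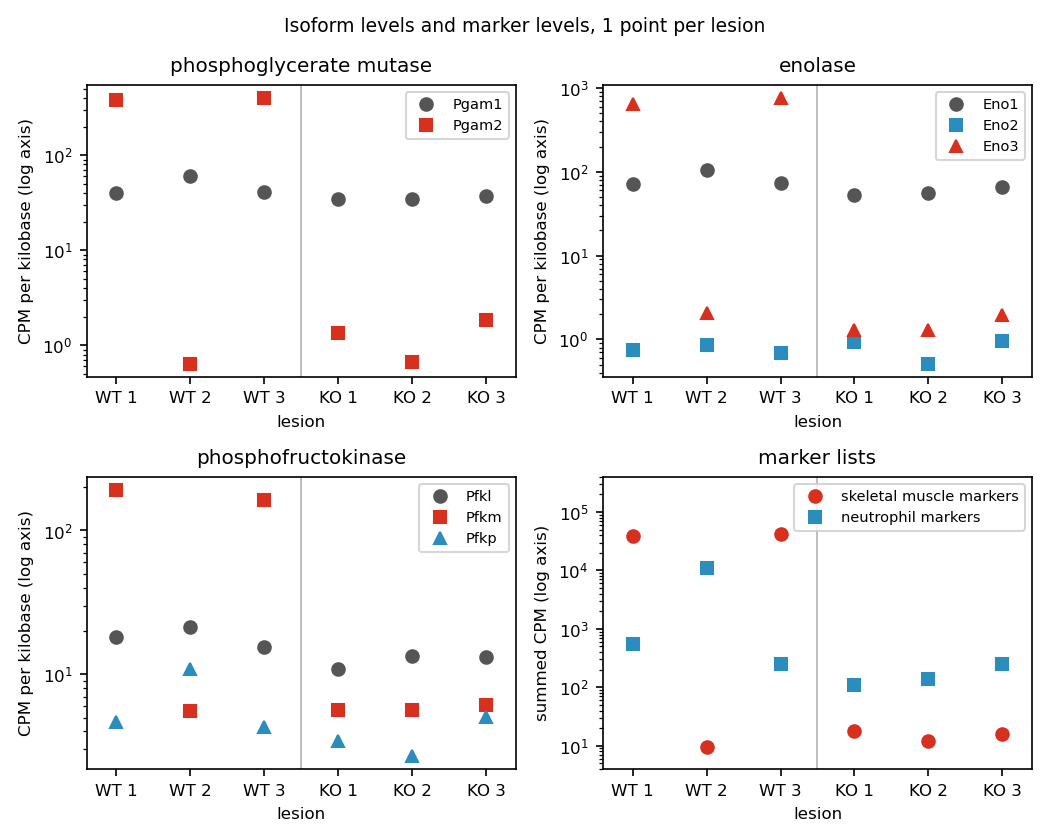
The first 3 panels plot CPM per kilobase of exon for each isoform of phosphoglycerate mutase, enolase and phosphofructokinase, and the last panel the summed CPM of the skeletal muscle and neutrophil marker lists, each on a log axis with 1 point per lesion. Pgam2, Eno3 and Pfkm stand above their families in WT replicates 1 and 3, the lesions with skeletal muscle markers at 39206 and 42020 CPM, and WT replicate 2, with neutrophil markers at 10945 CPM, has the muscle isoforms at the KO level.

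To show what sequence lies before the start of genes with these different patterns, promoter windows of RefSeq on GRCm38.p6, from 250 bases before to 50 bases after a start, were searched on both strands. Windows were found for 34 of the 36 genes, 54 windows in all, and none for Slc2a3 and Slc2a4. The searched letters were ACGTG, the core that HIF-1 binds, CAGCTG, an E-box of the kind bound by muscle regulatory factors, and the MEF2 consensus. CACGTG holds ACGTG on both strands. ACGTG was found in 63.6% of the 11 windows of the hypoxia-induced genes, 42.1% of the 19 windows of the ubiquitous genes and 33.3% of both the 6 windows of the muscle isoforms and the 18 of the other genes, beside 19.6% of all 32851 windows. CAGCTG was found in 16.7% of the windows of the 36 genes and 16.3% of all windows, and the MEF2 consensus in 3.7% and 3.19%. Of the 6 windows of the muscle isoforms, 2 held CAGCTG and 1 held the MEF2 consensus. Several genes have more than 1 window, windows can overlap, and base composition was not considered, so these shares describe the letters present and no binding.

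The 250 bases before the start are shown, 5′ to 3′ on the gene's strand, for the muscle isoform with both muscle motifs and for 3 genes higher in all 3 WT lesions. Capitals mark CAGCTG and then the MEF2 consensus in Pgam2, and ACGTG on either strand in the others. Hk2 and Slc16a3 each hold 2 marked stretches and Ldha holds 3. Windows with marked letters were chosen for display. A second window of Ldha holds no ACGTG, nor does the window of Pfkfb4, another hypoxia-induced gene higher in all 3 WT lesions.
Pgam2, chr11:5803797-5804046, minus strand: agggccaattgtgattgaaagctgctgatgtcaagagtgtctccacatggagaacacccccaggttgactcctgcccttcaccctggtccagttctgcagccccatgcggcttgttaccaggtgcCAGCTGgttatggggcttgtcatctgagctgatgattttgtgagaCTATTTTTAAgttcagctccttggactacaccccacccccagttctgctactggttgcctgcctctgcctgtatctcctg
Hk2, chr6:82774455-82774704, minus strand: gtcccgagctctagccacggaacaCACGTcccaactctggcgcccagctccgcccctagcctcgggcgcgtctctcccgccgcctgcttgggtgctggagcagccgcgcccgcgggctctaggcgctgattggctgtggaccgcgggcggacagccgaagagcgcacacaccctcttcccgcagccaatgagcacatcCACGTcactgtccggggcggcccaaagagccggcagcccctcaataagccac
Ldha, chr7:46845554-46845803, plus strand: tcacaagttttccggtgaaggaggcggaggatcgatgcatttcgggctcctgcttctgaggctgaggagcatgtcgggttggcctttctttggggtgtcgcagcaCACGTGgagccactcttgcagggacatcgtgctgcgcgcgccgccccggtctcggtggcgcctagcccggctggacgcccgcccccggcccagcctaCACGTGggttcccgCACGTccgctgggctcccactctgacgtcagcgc
Slc16a3, chr11:120948817-120949066, plus strand: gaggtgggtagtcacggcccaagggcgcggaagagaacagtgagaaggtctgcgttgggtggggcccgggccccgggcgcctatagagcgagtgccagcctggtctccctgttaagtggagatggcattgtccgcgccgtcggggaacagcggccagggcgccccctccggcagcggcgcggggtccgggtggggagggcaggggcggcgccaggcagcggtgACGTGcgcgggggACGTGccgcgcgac

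Glucose entry and its first phosphorylation were next compared among the transporters and hexokinases. Slc2a1, the glucose transporter found in most cells, measured 171.9, 210.7 and 102.7 CPM across WT and 97.1, 76.5 and 77.3 across KO lesions. Every WT lesion was above every KO lesion, with WT replicate 3 closest to them, and the log2 fold change was -0.95 (SE 0.28). Slc2a4, the insulin-responsive transporter of muscle and fat, measured 72.3, 34.5 and 82.9 CPM across WT and 25.9, 21.3 and 40.8 across KO lesions, so WT replicate 2 lay within the KO range. Its log2 fold change was -1.11 (SE 0.40), and -0.25 without WT replicates 1 and 3. Slc2a3, a high-affinity transporter abundant in neutrophils and neurons, ranged from 3.91 to 173.9 CPM, highest in WT replicate 2 and next in KO replicate 2. Its log2 fold change was -1.49 with all lesions and 1.32 without WT replicate 2.

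Hk2 (ENSMUSG00000000628.11), the inducible hexokinase that traps glucose in the cell, had the smallest standard error of the 36 genes relative to its difference. It measured 154.1, 133 and 138.2 CPM across WT and 53.7, 54.5 and 56.2 across KO lesions. The WT mean of 141.8 ± 11 CPM (SD, n = 3) was 2.59 times the KO mean of 54.8 ± 1.28 CPM (SD, n = 3), and the groups did not overlap. Its log2 fold change of -1.37 (SE 0.11) was -1.41 without WT replicate 2 and -1.30 without WT replicates 1 and 3. Among the same 3 WT lesions the summed skeletal muscle markers ran from 9.61 to 42020 CPM and the neutrophil markers from 250.7 to 10945 CPM, and the part of these cells in the difference in Hk2 was not tested. Hk1, the hexokinase of most cells, ranged from 53.7 to 134.4 CPM and Hk3, a hexokinase of myeloid cells, from 6.65 to 52 CPM, both highest in WT replicate 2. Of the 3 hexokinases, Hk2 held 72.5%, 42.7% and 70.6% of the summed CPM per kilobase in WT and 49.9%, 53% and 42.5% in KO lesions.

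The PFKFB enzymes set the level of fructose 2,6-bisphosphate, the activator of phosphofructokinase. Pfkfb4 measured 27.7, 52.8 and 21.9 CPM across WT and 15, 11.5 and 15.8 across KO lesions, without overlap, and its log2 fold change was -1.28 (SE 0.36). Without WT replicate 2 it was -0.81 and did not pass the threshold. Pfkfb3, the form with the strongest kinase activity, measured 795 CPM in WT replicate 2 and 42.4 to 154.6 CPM in the other 5 lesions, and its log2 fold change was -1.89 with all lesions and -0.20 without WT replicate 2. WT replicate 2, the highest lesion for Slc2a3, Slc16a3, Hk1, Hk3, Pfkfb3 and Pfkfb4, was the one with neutrophil markers at 10945 CPM and had the highest macrophage markers, and the part of these cells in the 6 genes was not tested. Pfkfb1 and Pfkfb2, known from liver and heart, ranged from 2.82 to 12.4 CPM and from 6.73 to 10.6 CPM.

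Of the enzymes between fructose 6-phosphate and pyruvate, Pkm and Aldoa are the clearest contrast. Pkm (ENSMUSG00000032294.18), pyruvate kinase of most tissues, which makes pyruvate and ATP, measured 1027, 1001 and 1089 CPM across WT and 365.8, 335.4 and 462.7 across KO lesions. The 3 WT lesions were close to each other, at a mean of 1039 ± 45 CPM (SD, n = 3) against 388 ± 66.5 CPM (SD, n = 3), and the log2 fold change of -1.42 (SE 0.19) was -1.45 without WT replicate 2 and -1.39 without WT replicates 1 and 3. Aldoa (ENSMUSG00000030695.17), the aldolase of muscle and most other cells, measured 3797, 1026 and 4148 CPM across WT and 585.2, 582.6 and 641.8 across KO lesions. All WT lesions were higher, but WT replicate 2 by far less, and the log2 fold change of -2.31 (SE 0.54) was -0.79 without WT replicates 1 and 3.

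Gapdh, the dehydrogenase that yields NADH and is often used as a reference gene, measured 1996, 1061 and 2184 CPM across WT and 704, 613.2 and 684.3 across KO lesions. Its groups did not overlap, and its log2 fold change of -1.39 (SE 0.31) was -0.69 without WT replicates 1 and 3. Tpi1, triose phosphate isomerase, had the same shape at 850.3, 494.4 and 923.8 CPM across WT and 399.1, 400.7 and 353.5 across KO lesions. Pgk1, which makes ATP from 1,3-bisphosphoglycerate, measured 375.7, 332.5 and 461.1 CPM across WT and 198.7, 254 and 182 across KO lesions. Tpi1 and Pgk1 had log2 fold changes of -0.98 (SE 0.27) and -0.88 (SE 0.21) and were not past the threshold.

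Gpi1, glucose 6-phosphate isomerase, measured 414, 347.8 and 370.1 CPM across WT and 246.9, 241 and 263.9 across KO lesions, a log2 fold change of -0.59 (SE 0.14). Pfkl, the liver-type phosphofructokinase, measured 121.3, 142.8 and 103.2 CPM across WT and 72.8, 88.9 and 87.2 across KO lesions, a log2 fold change of -0.56 (SE 0.17). All WT values of these 2 genes lay above all KO values, with no WT lesion far from the others. Pgam1 measured 78.6, 120.2 and 81 CPM across WT and 68.9, 69.1 and 74.5 across KO lesions. Eno1 measured 387.8, 564.4 and 392.5 CPM across WT and 285.4, 301.2 and 354.1 across KO lesions. In both, WT replicate 2 stood apart from the other lesions and the remaining gap between the groups was narrow. The log2 fold changes were -0.40 (SE 0.19) for Pgam1 and -0.52 (SE 0.21) for Eno1. Without WT replicate 2 they were -0.17 and -0.31. Pfkp, the platelet-type phosphofructokinase, ranged from 36.4 to 144.9 CPM with WT replicate 2 highest, and Bpgm, which makes the oxygen-affinity regulator of red cells, from 18.8 to 62.6 CPM with overlap between the groups.

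Among the genes of lactate production and export, Ldha and Slc16a3 did not overlap between the groups. Ldha, the lactate dehydrogenase subunit that favours lactate, measured 1513, 998.5 and 1690 CPM across WT and 742.9, 695.1 and 757.7 across KO lesions, a log2 fold change of -0.94 (SE 0.24) and no overlap. It was -0.47 without WT replicates 1 and 3. Slc16a3 (ENSMUSG00000025161.17), the lactate exporter MCT4 of glycolytic cells, measured 64.4, 258.6 and 58.4 CPM across WT and 6.05, 7.95 and 16.5 across KO lesions. Even the lowest WT lesion was above the highest KO lesion, and the log2 fold change was -3.64 (SE 0.77). It was -2.59 without WT replicate 2 and -4.68 without WT replicates 1 and 3, past the threshold in both.

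Slc16a1, the lactate transporter MCT1 of most cells, ranged from 110.9 to 163.9 CPM in WT and from 102.9 to 166.7 CPM in KO lesions, for a log2 fold change of -0.12 (SE 0.24). Of the 2 lactate transporters, Slc16a3 thus held 24.6%, 59.3% and 30.5% of the summed CPM per kilobase in WT and 4.67%, 3.82% and 10.3% in KO lesions. Ldhb, the subunit that favours pyruvate, ranged from 61.6 to 73.8 CPM in WT and from 22 to 70.5 CPM in KO lesions and overlapped through KO replicate 2.

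**Figure D3:**
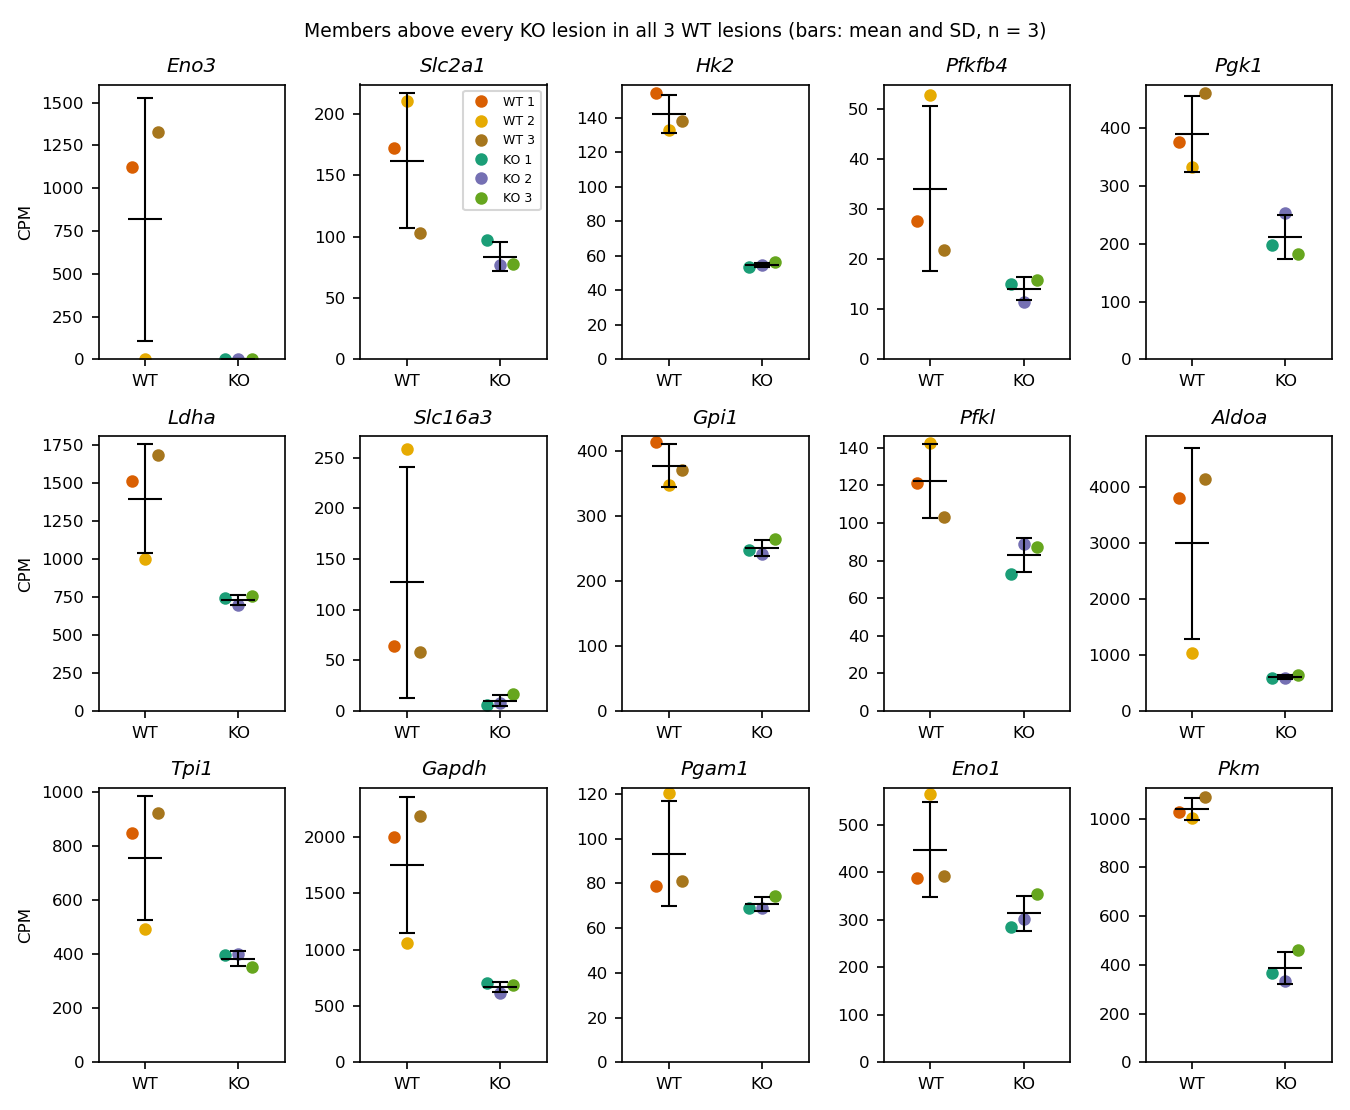
CPM in each lesion is plotted for the 15 genes in which all WT lesions lay above all KO lesions, 1 panel per gene with its own axis from 0, with points coloured by lesion and bars giving the mean and SD of 3 lesions. Hk2, Pkm and Gpi1 have tightly grouped WT points, Aldoa, Gapdh, Ldha and Tpi1 have WT replicate 2 lowest among WT, and Slc16a3, Pfkfb4 and Pgam1 have it highest; the 3.62 CPM of Eno3 in WT replicate 2 is not distinguishable from KO by eye.

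Pyruvate dehydrogenase kinases shut off the entry of pyruvate into the citric acid cycle, and Pdk4, the form induced by fasting in muscle, measured 250.1, 36.7 and 361.6 CPM across WT and 13.2, 16.7 and 53.4 across KO lesions. WT replicate 2 lay within the KO range, and the log2 fold change of -2.96 (SE 0.96) was -0.41 without WT replicates 1 and 3. Pdk2 behaved alike at 99, 37.3 and 98.5 CPM across WT and 25.3, 32.2 and 51.4 across KO lesions, for a log2 fold change of -1.11 (SE 0.45) and -0.05 without WT replicates 1 and 3. Both genes were thus above all KO lesions in the 2 WT lesions with skeletal muscle transcripts and not in the third. Pdk1, the hypoxia-induced form, ranged from 51.9 to 119.5 CPM and Pdk3 from 13.4 to 20.4 CPM, with overlap. Hif1a, which encodes the oxygen-regulated subunit of HIF-1 that is controlled mainly at the level of the protein, ranged from 369.5 to 635 CPM in WT and from 280.7 to 380.9 CPM in KO lesions, and only WT replicate 1 lay within the KO range.

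Of the 36 log2 fold changes 5 were positive, and none of them passed the threshold. Aldoc, the aldolase of brain, ranged from 4.64 to 14.1 CPM in WT and from 8.25 to 72.1 CPM in KO lesions, for a log2 fold change of 1.96 (SE 0.85) that was 0.78 without KO replicate 2. Pklr, the pyruvate kinase of liver and red cells, was at most 2.46 CPM in any lesion and at 0 in WT replicate 2 and KO replicate 3, so its log2 fold change of 3.12 rests mainly on KO replicate 2. The other positive values were 0.28 for Pfkfb2, 0.14 for Pdk3 and 0.08 for Eno2, the neuronal enolase, at 2.42 to 4.5 CPM. KO lesions also varied among themselves: KO replicate 2 was the highest KO lesion for Slc2a3 at 56.8 CPM, Ldhb at 70.5 CPM and Aldoc at 72.1 CPM, and KO replicate 3, with the highest adipocyte and erythroid markers, for Pfkfb3 at 154.6 CPM, Bpgm at 45.1 CPM and Pdk4 at 53.4 CPM. These KO values were chosen after they were seen, and the part of adipocyte or erythroid cells in them was not tested.

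By class, the median log2 fold change was -7.68 for the muscle isoforms, -1.28 for the hypoxia-induced genes, -0.66 for the ubiquitous genes and -0.55 for the others. On the log2(CPM + 0.5) scale, the class median stood above the KO mean by 7.74 and 7.80 in WT replicates 1 and 3 but at -0.06 in WT replicate 2 for the muscle isoforms. For the hypoxia-induced genes it stood 0.96, 1.34 and 0.70 above the KO mean in WT replicates 1, 2 and 3, and for the ubiquitous genes 0.55, 0.77 and 0.56 above it. WT replicate 2, where both of these classes stood highest, had skeletal muscle markers at 9.61 CPM, neutrophil markers at 10945 CPM and macrophage markers at 4125 CPM, and the part of these cells in the class medians was not tested. Over all genes tested the same median lay between -0.03 and 0.01 in every lesion. Leaving out WT replicate 2 took the hypoxia-induced median to -0.81 and the median of the other genes to 0.17, and the latter median ran from -1.42 to -0.20 as KO replicates 3, 1 and 2 were left out in turn (-1.42, -0.23 and -0.20). Of the 12 genes past the threshold, 4 remained past it without WT replicates 1 and 3: Hk2, Pfkfb4, Slc16a3 and Pkm.

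**Figure D4:**
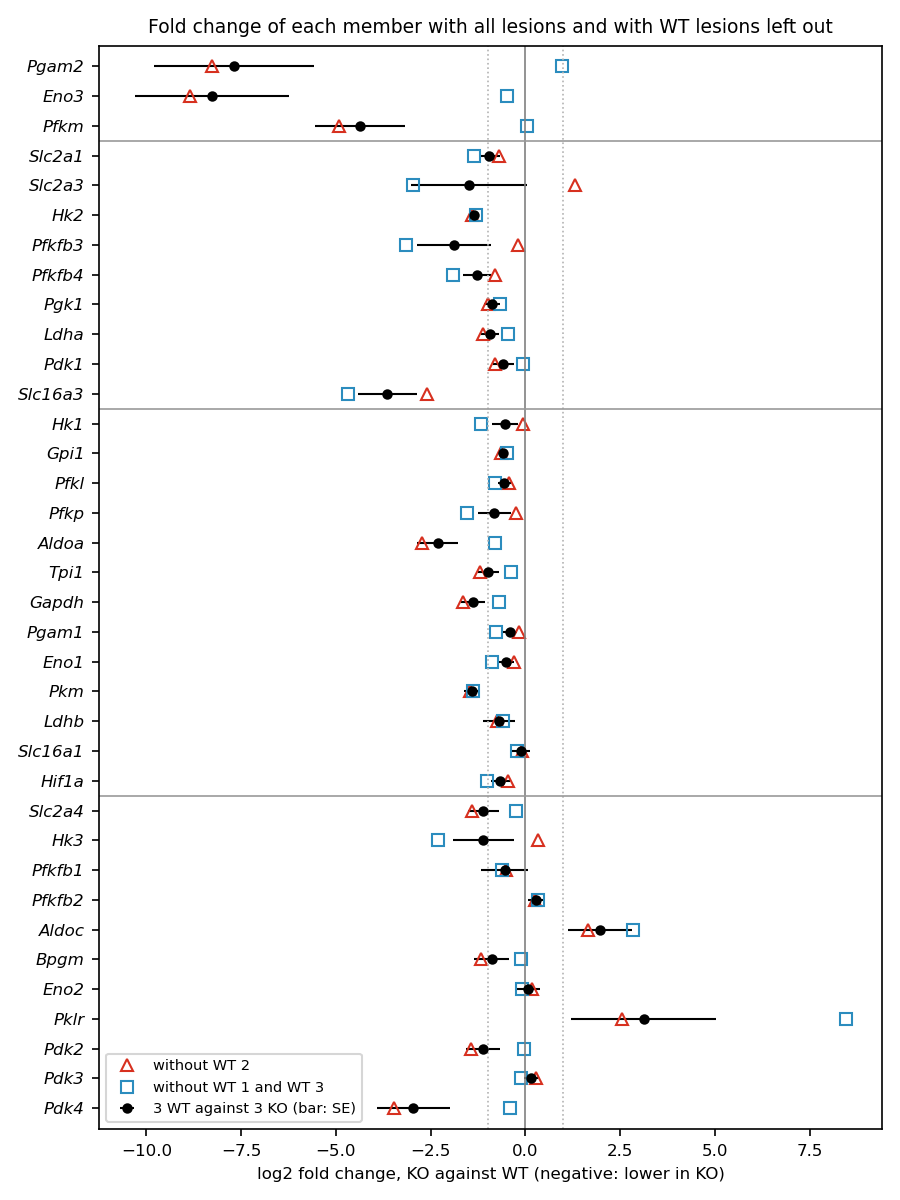
The log2 fold change of each gene, KO against WT, is plotted with all 6 lesions (black, bar giving the standard error), without WT replicate 2 (triangles) and without WT replicates 1 and 3 (squares), with dotted lines at 1 and -1. For Hk2 and Pkm the 3 symbols nearly coincide, for the muscle isoforms, Aldoa, Pdk2 and Pdk4 the squares lie near 0 or to the right of the others, and for Slc2a3, Pfkfb3 and Hk3 the triangles do; the square of Pklr at 8.47 rests on a WT lesion with 0 counts.

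Pathways that branch from glycolysis were followed in 6 lists of 66 genes, of which 58 were tested. At the same threshold 10 were lower in KO lesions (5.85% of all genes) and 1 was higher (3.1% of all genes). With each of the 6 lesions left out in turn, 6 of these 11 remained past it every time, those that did not included Phka1, Phkg1, Fbp2 and Eno4, and the number lower was 6 without WT replicate 3 or KO replicate 1. Glycogen metabolism, which stores and releases glucose, contributed 6 of the 10 out of 14 tested. Pygm, the muscle glycogen phosphorylase, measured 896.1, 2.61 and 1188 CPM across WT and 5.26, 4.45 and 4.42 across KO lesions, so WT replicate 2 lay below all KO lesions. Phka1 and Phkg1, subunits of phosphorylase kinase known from muscle, were likewise high in WT replicates 1 and 3, with log2 fold changes of -2.05 and -3.06. Gys1, glycogen synthase, measured 191.9, 78.1 and 138.3 CPM across WT and 37.6, 39.5 and 57.5 across KO lesions. Gyg, which primes glycogen, measured 195, 110.6 and 175.3 CPM across WT and 62.3, 57 and 69 across KO lesions. These were the 2 of the 14 with every WT lesion above every KO lesion, beside 8.74% of all genes tested. A count of 2 is too small to set apart from that share.

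In the other lists, fewer genes passed. Of 5 gluconeogenesis genes tested 1 did, Fbp2, the muscle fructose bisphosphatase, with a log2 fold change of -3.81 and values of 23, 1.31 and 29 CPM across WT and 0.456, 3.18 and 0.167 across KO lesions. Of 18 genes of the hypoxia response outside glycolysis 2 did: Egln3, a prolyl hydroxylase that is itself induced by HIF, at 99.7, 102.8 and 62.9 CPM across WT and 22.9, 22.5 and 40.8 across KO lesions, for a log2 fold change of -1.62 (SE 0.32), and Ankrd37, with a log2 fold change of -1.52 (SE 0.42). Both had every WT lesion above every KO lesion, and of the 11 genes these 2 remained past the threshold without WT replicates 1 and 3. Over the 18 hypoxia response genes, 13 log2 fold changes were negative and 5 positive, with a median of -0.73. The lowest WT lesion exceeded the highest KO lesion in 4 of them (Egln2, Egln3, Ankrd37 and P4ha1), beside 8.74% of all genes tested. The reverse held in 0, beside 10.7% of all genes. On the log2(CPM + 0.5) scale the list median stood 0.45, 0.62 and 0.30 above the KO mean across WT lesions. The part of host cells in this was not tested. Of 5 further genes of the same families, Tigar, which lowers fructose 2,6-bisphosphate, was lower with a log2 fold change of -1.36. Another of the 5, Eno4, a testis enolase, was higher with 5.02, at 9.57 CPM in KO replicate 2 and at most 0.333 CPM elsewhere. Without KO replicate 2, and without each WT lesion in turn, Eno4 did not pass the threshold.

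Of the 9 genes for pyruvate entry into mitochondria 0 passed the threshold, 8 had negative log2 fold changes, and the list median was -0.44. On the log2(CPM + 0.5) scale the list median stood 0.55 and 0.66 above the KO mean in WT replicates 1 and 3. In WT replicate 2 it stood 0.06 above, and the part of skeletal muscle in this was not tested. Pdha1 and Dld, the most abundant of the 9 and subunits of the pyruvate dehydrogenase complex, had log2 fold changes of -0.41 (SE 0.21) and -0.33 (SE 0.16). The pentose phosphate pathway, which draws glucose 6-phosphate away to make NADPH and ribose, had positive log2 fold changes in all 7 genes, with a median of 0.21, and 0 passed the threshold. Its most abundant genes were G6pdx, which encodes the entry enzyme, at 230, 207 and 239.3 CPM across WT and 389.4, 365 and 316.3 across KO lesions, and Taldo1, an enzyme of its non-oxidative branch, with a log2 fold change of 0.30 (SE 0.14). G6pdx had a log2 fold change of 0.66 (SE 0.15), and every KO lesion lay above every WT lesion, as in 3 of the 7 genes and 10.7% of all genes tested.

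**Figure D5:**
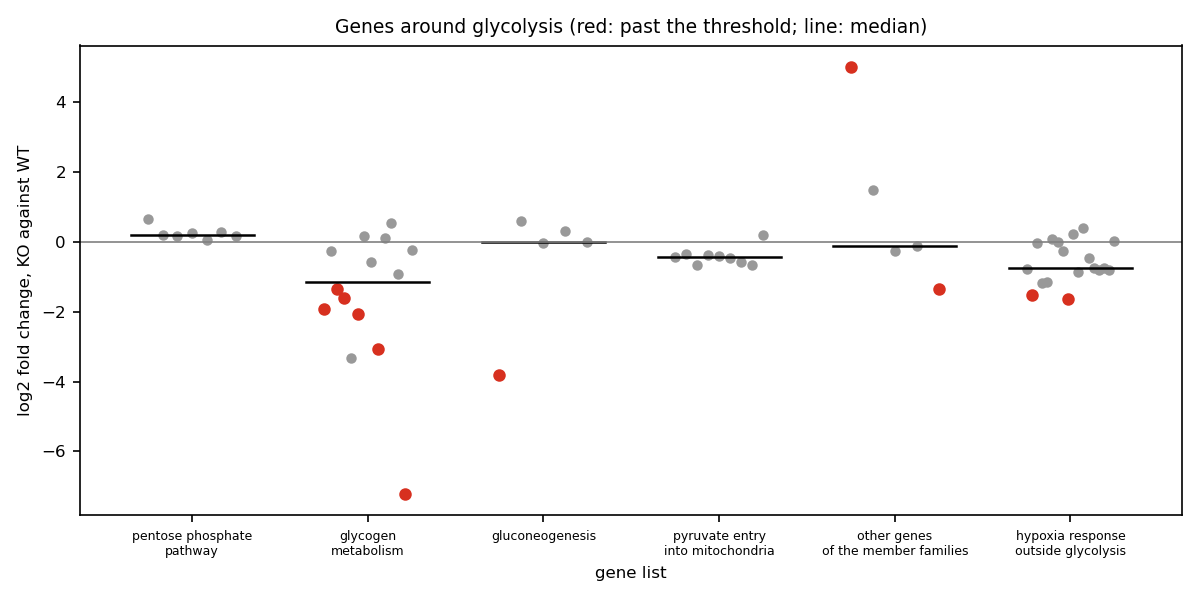
Each point is the log2 fold change, KO against WT, of 1 of the 58 tested genes in 6 lists around glycolysis, red where past the threshold, with a line at each list's median. Glycogen metabolism has 6 red points below 0 with Pygm lowest at -7.21, the pentose phosphate pathway has all 7 points above 0, and the single red point above 0 is Eno4 at 5.02.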

How the data were processed

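RNA from 3 WT and 3 KO ectopic lesions was sequenced as 6 stranded mRNA libraries. The deposited values are raw counts of reads per gene for 56884 genes, and the deposited table of the series was equal, gene by gene, to the 6 files of the single lesions. The authors trimmed and mapped the reads and counted them per gene. Their processing notes name Trimmomatic, featureCounts and GRCm39, while the methods name GRCm38, and the aligner, annotation release and strand setting are not given in the sources used here. Symbols were taken from GENCODE M21 for 51948 genes, and genes without one held 3.04% to 3.56% of the counts. Of 2 identifiers with the symbol Aldoa, the one with more counts was used. Pseudogene copies of Pgk1, Ldha, Aldoa, Gapdh, Pgam1 and Eno1 held at most 3.68% of the reads of a gene and its copies, and how reads were shared among them is not given.

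The 36 genes, their classes and all lists were chosen with earlier results of these data known. A quasi-likelihood model of the counts on genotype alone was fitted in edgeR 4.0.16 (R 4.3.3) to the 18177 genes that filterByExpr kept, after TMM scaling. The standard error (SE) of a log2 fold change was its size over the root of F. CPM used the TMM factors (0.962 to 1.052) without a prior count, and log2 levels a pseudocount of 0.5. CPM per kilobase used the union of exons in GENCODE M21, whose gene models can differ from those counted. The fit was tested on simulated data. Totals of 45370342 to 57239184 counts make counting error small beside the spread between lesions, and it is understated without molecular identifiers.

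Alternatives were DESeq2 1.42.0, its size factors, upper quartile scaling, other filters, a replicate block, each lesion left out, other lengths for the isoform shares and, chosen after seeing the data, leaving out WT replicates 1 and 3. All 36 genes are named. Genes of the pathway lists are named where past the threshold (1 is not reported here), or else the 2 with the highest mean, and marker lists are given by summed level with up to 3 leading genes, and Foxa2 was named after its values were seen.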

Additional observations from a re-analysis of the deposited data

How the results depend on the processing

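The number of the 36 genes lower in KO lesions past the threshold was 12 with all lesions, 10 to 14 with 1 lesion left out, and 10 without WT replicates 1 and 3, of which 4 were among the 12. The number higher was 0, and 1 (Aldoc) with no filter beyond 1 count and with DESeq2, and 0 to 1 with 1 lesion left out. Of the pathway lists, 6 to 12 genes were lower and 0 to 1 higher with 1 lesion left out, and 0 were higher with DESeq2 or with at least 10 counts required in every library, which removed Eno4 from the genes tested, and 2 without WT replicates 1 and 3. The median log2 fold change of the 36 genes was -1.02 to -0.73 with 1 lesion left out and -0.59 without WT replicates 1 and 3. In the same 2 settings it was -8.26 to -7.25 and 0.04 for the muscle isoforms, -1.41 to -0.81 and -1.36 for the hypoxia-induced genes, -0.71 to -0.47 and -0.79 for the ubiquitous genes and -1.42 to 0.17 and -0.11 for the other genes, which reversed, at 0.17, without WT replicate 2. Without WT replicates 1 and 3, Pgam2 (0.97) and Pfkm (0.04) reversed. Upper quartile scaling moved the median of all genes to 0.11 and that of the ubiquitous genes to -0.57, and every other class kept its sign. The mean shares of muscle isoforms in KO lesions depended on the length used. By coding length they were 1.48% for Pgam2, 0.872% for Eno3 and 12.5% for Pfkm, and with counts not divided by length 1.48%, 0.813% and 12.8%, against 3.41%, 2.47% and 26.5% by exon length. Same-numbered lesions did not deviate together (correlations of 0.055, -0.161 and -0.234 for replicates 1, 2 and 3), so the numbers do not pair the lesions. With a replicate block, 8 of the 36 genes and 6 genes of the pathway lists were lower, and the class medians kept their sign. The 4 of the 12 that did not pass the threshold with the block were the muscle isoforms Pgam2 (log2 fold change -6.38), Eno3 (-7.21) and Pfkm (-3.60), and Pdk2 (-1.04). The cause of these changes was not tested. With 3 lesions a group, the adjusted p-values differed between tools: with 0 of the 36 genes under 0.05 in edgeR and 14 in DESeq2, and 9 in edgeR without WT replicate 2, which also took the count over all genes from 1 to 398.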
